A study of Homo sapiens with 9 samples.

Results

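The BCL2 family regulates the intrinsic, or mitochondrial, route to apoptosis. Antiapoptotic members such as MCL1, BCL2, BCL2L1 (BCL-XL) and BCL2L2 (BCL-W) hold the pore-forming members BAX and BAK1 in check at the outer mitochondrial membrane. BH3-only members, here BCL2L11 (BIM), BID, BAD and BIK, bind the antiapoptotic proteins or activate the pore formers, and opened pores release cytochrome c, which leads to caspase activation. MCL1 protein is short-lived, and many lung cancer cells depend on MCL1 or BCL2L1 to survive.

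The 10 genes named above were followed in RNA from A549, an established human lung adenocarcinoma cell line. They were found by their symbols among the 31080 reference genes or joined gene sets in the files, and each was on 1 row. Of the 56252 features in each file, 25125 carried no reference gene. Cells were transfected for 48 h with scrambled siRNA or with siCyclin K#1 or siCyclin K#2, each an siRNA against Cyclin K. Each of the 3 groups had 3 libraries of total RNA, described as independent samples. All groups come from this 1 cell line, received an siRNA and differ only in its sequence as far as the labels say, and an untransfected group was not analysed here. Values are FPKM, a count of fragments corrected for gene length and library depth. Small FPKM, multiplied by gene length, came in steps, from which the depth was estimated. The commonest step was taken as 1 fragment, and each fragment as a pair of reads. The estimated depth was 33767976, 31847925 and 32437444 reads for scrambled siRNA, 32368153, 31333762 and 32956415 reads for siCyclin K#1, and 32145740, 33211946 and 31862433 reads for siCyclin K#2.

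The cells carried epithelial and A549-associated transcripts, most of which moved with the groups. KRT8 ranged from 49.7 to 104.9 FPKM over the 9 libraries and rose with both siRNAs, by 0.78 and 0.83 on the log2 scale, while KRT18 ranged from 69.8 to 91.0 FPKM and fell by 0.17 with siCyclin K#1, a call lost with quantile normalization (-0.03) and without trend. Of the 4 A549-associated genes, the aldehyde dehydrogenase ALDH1A1 (529 to 982 FPKM) rose by 0.59 and 0.74 and the quinone reductase NQO1 (189 to 308 FPKM) by 0.66 and 0.48. The aldo-keto reductase AKR1B10, whose row is joined with that of AKR1B15, fell with both siRNAs, by 1.20 and 0.81, from 321 to 332 FPKM with scrambled siRNA to values between 128 and 191 FPKM in the siCyclin K libraries. AKR1C1 ranged from 19.6 to 33.0 FPKM and rose with siCyclin K#2, by 0.37. The epithelial adhesion gene CDH1 ranged from 1.19 to 4.60 FPKM and rose with siCyclin K#1, by 1.17 on the log2 scale, and EPCAM, another adhesion gene, reached only 0.279 FPKM.

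Markers of other cell types were low, apart from COL1A1. The alveolar type II genes SFTPC, SFTPB and NKX2-1 reached only 0.114, 0.0606 and 0.104 FPKM, the last for a row that NKX2-1 shares with SFTA3 and AL132857.1. Among leukocyte markers PTPRC reached 0.00685 FPKM, CD14 had 0.573 to 1.02 FPKM and fell by 0.56 on the log2 scale with siCyclin K#1 (limma adjusted p = 0.0359), and CD3E was not analysed here. That call was lost without any single scrambled or siCyclin K#1 library (-0.60 to -0.54). Among endothelial markers PECAM1 and CDH5 reached 0.0119 and 0.0210 FPKM, and VWF had 8, 14 and 5 reads in the siCyclin K#1 libraries and was at 0 in the other 6. Of the 3 fibroblast markers COL1A1, a collagen chain, was the most abundant. It had 1.79, 2.21 and 2.10 FPKM in scrambled libraries, 13.7, 14.7 and 13.7 FPKM in siCyclin K#1 libraries and 3.30, 3.18 and 3.10 FPKM in siCyclin K#2 libraries, and rose by 2.73 and 0.63 on the log2 scale (limma adjusted p = 5.18e-08 and 0.000334). DCN, under the filter on low values, was also higher in siCyclin K#1 libraries, with 32, 37 and 29 reads against 7 to 13 with scrambled siRNA and 5 to 8 with siCyclin K#2. PDGFRB reached 0.136 FPKM and did not pass the test. The summed level of the 3 markers was 1.91 to 2.32, 13.9 to 14.9 and 3.24 to 3.44 FPKM in the same groups. The part of these markers in the changes described next was not tested.

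CCNK, a gene of chromosome 14 (GRCh38, plus strand), encodes Cyclin K, the partner of CDK12 and CDK13. Its level was 6.90, 7.06 and 7.10 FPKM for scrambled siRNA, 0.891, 0.816 and 0.720 FPKM for siCyclin K#1, and 0.809, 0.920 and 0.802 FPKM for siCyclin K#2. CCNK fell by 2.97 on the log2 scale with siCyclin K#1 (standard error 0.10, limma adjusted p = 7.86e-08) and fell by 2.92 with siCyclin K#2 (standard error 0.10, limma adjusted p = 2.33e-07). The direct difference between the siRNAs was -0.06 (standard error 0.10, limma adjusted p = 0.726). CDK12 rose with both siRNAs, by 1.31 and 1.21 on the log2 scale. CDK13 rose by 0.27 with siCyclin K#2 (limma adjusted p = 0.0264), a call that 4 fits without 1 library lost (0.22 to 0.27). Its change of 0.20 with siCyclin K#1 missed the threshold (limma adjusted p = 0.0713). The sites of both siRNAs are shown because they place the siRNAs on their target. They lie in the coding region of the transcript CCNK-201 in GENCODE 29, siCyclin K#1 at nucleotides 628 to 648, across the junction of exons 5 and 6 (chr14:99500859-99501363 with the intron), and siCyclin K#2 at nucleotides 576 to 594, in exon 5 (chr14:99500807-99500825). The capitals mark the letters opposite bases 2 to 8 of the guide strand.
siCyclin K#1 site in CCNK: aagcaactcaaagGTGATAAa
siCyclin K#2 site in CCNK: caagtttgattTACAGGTa

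Which members moved was asked for each siRNA against scrambled and for the siRNAs against each other, with limma on log2(FPKM + 0.1) over 21048 genes and a call at a Benjamini-Hochberg adjusted p under 0.05. All 10 members passed the filter on low values. With siCyclin K#1, 3 members rose (BCL2L1, BIK, BAX) and 4 fell (MCL1, BAK1, BAD, BID), while 44.8% of all genes tested were called, 26.8% higher and 18.1% lower. With siCyclin K#2, 1 member rose (BCL2L1) and 3 fell (MCL1, BAK1, BAD), against 34.9% of all genes, 19.8% higher and 15.2% lower. Between the siRNAs, 7 members differed, against 29.4% of all genes, 17.1% higher and 12.3% lower with siCyclin K#1. The median log2 change of the members was 0.11 with siCyclin K#1 and -0.17 with siCyclin K#2, and that of all genes tested was 0.10 and 0.01. With a stricter rule, a change of more than 3-fold at an unadjusted p under 0.01, no member was called against scrambled siRNA, where 4.67% and 1.94% of all genes were. BIK was the one member called between the siRNAs, where 1.53% of all genes were. The comparisons against scrambled siRNA share their 3 control libraries, so that like values in both are not independent. In RNA from a whole dish, fewer cells that carry a transcript and less of it per cell cannot be told apart.

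**Figure D1:**
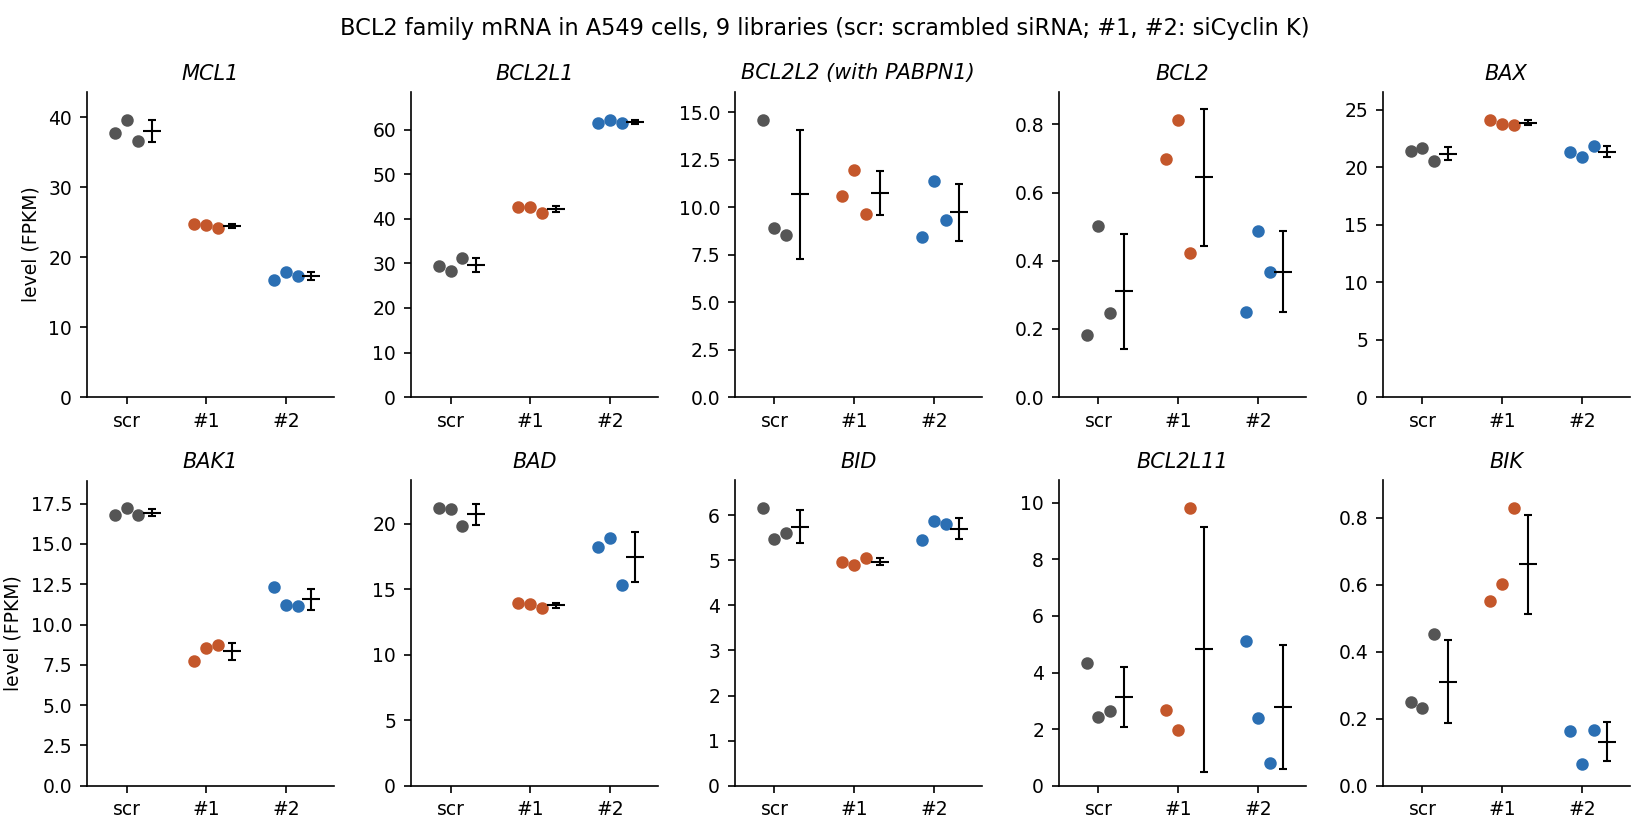
Level of each of the 10 BCL2 family members in FPKM (vertical axis, from 0, its own scale in each panel) in the 9 libraries, by group (scr, scrambled siRNA; #1 and #2, the Cyclin K siRNAs). Points are libraries and the black mark beside them is the mean with the SD (n = 3); MCL1 steps down from a mean of 38.0 to 24.5 and 17.3 FPKM, BCL2L1 steps up from 29.6 to 42.2 and 61.7 FPKM, and BCL2L11 scatters within every group.

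MCL1, an antiapoptotic member, fell with both siRNAs, and further with siCyclin K#2. Its gene is at chr1:150574551-150579738 of GRCh38, on the minus strand. The level was 37.8, 39.6 and 36.5 FPKM with scrambled siRNA, 24.7, 24.6 and 24.2 for siCyclin K#1, and 16.7, 17.9 and 17.3 for siCyclin K#2. No value of a group reached into another group. The means were 64.5% and 45.5% of the scrambled mean. On the log2 scale MCL1 fell by 0.63 with siCyclin K#1 (standard error 0.04, limma adjusted p = 3.37e-06) and by 1.13 with siCyclin K#2 (standard error 0.04, limma adjusted p = 3.23e-07). The direct difference, siCyclin K#1 minus siCyclin K#2, was 0.50 (standard error 0.04, limma adjusted p = 3.67e-05).

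BCL2L1, which encodes BCL-XL and, by another splice form, the proapoptotic BCL-XS, rose with both siRNAs. It lies at chr20:31664452-31723989, on the minus strand. The level was 29.4, 28.3 and 31.2 FPKM with scrambled siRNA, 42.6, 42.6 and 41.3 for siCyclin K#1, and 61.4, 62.2 and 61.4 for siCyclin K#2. Again the 3 groups stood apart, in the opposite order to MCL1. The means were 142% and 208% of the scrambled mean. The log2 change was 0.51 with siCyclin K#1 (standard error 0.04, limma adjusted p = 8.92e-06) and 1.06 with siCyclin K#2 (standard error 0.04, limma adjusted p = 3.34e-07), and the siRNAs differed by -0.55 (standard error 0.04, limma adjusted p = 1.64e-05). Gene totals do not separate the splice forms.

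On the per-length FPKM scale MCL1 and BCL2L1 exchanged places. MCL1 made up 56.3%, 58.3% and 53.9% of their summed level in the libraries of scrambled siRNA, 36.7%, 36.6% and 36.9% for siCyclin K#1, and 21.4%, 22.3% and 22.0% for siCyclin K#2. MCL1 was thus the higher of the pair in the 3 scrambled libraries and the lower in the 6 siCyclin K libraries. The sum itself was 67.6 ± 0.417 FPKM in the scrambled group, 66.7 ± 1.03 FPKM for siCyclin K#1 and 79.0 ± 0.989 FPKM for siCyclin K#2 (SD, n = 3 for each). The sums of scrambled and siCyclin K#1 libraries overlapped, and those with siCyclin K#2 lay above both. These sums and shares are descriptions of mRNA, and protein was not measured here.

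**Figure D2:**
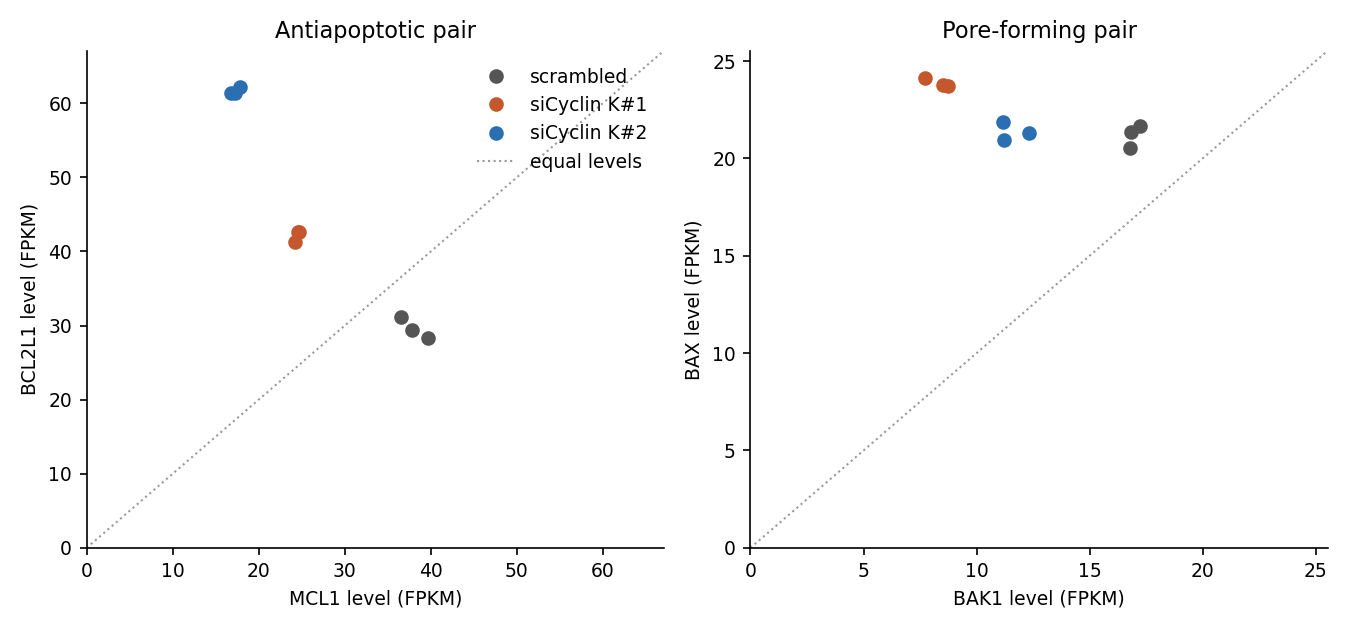
Left, level of BCL2L1 against that of MCL1, and right, level of BAX against that of BAK1, both axes in FPKM from 0, with 1 point for each of the 9 libraries and a dotted line where the levels are equal. The scrambled libraries lie under the line on the left, with MCL1 at 53.9% to 58.3% of the summed pair, and the siCyclin K libraries lie above it, at 21.4% to 36.9%; on the right all libraries lie above the line, with BAX to BAK1 ratios from 1.22 to 3.12.

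BCL2, the founding antiapoptotic member, was near the bottom of the family in this line. Its level was 0.184, 0.502 and 0.246 FPKM with scrambled siRNA, from 73, 188 and 94 reads, and 0.699, 0.814 and 0.423 FPKM with siCyclin K#1, from 266, 300 and 164 reads. It was 0.249, 0.489 and 0.368 FPKM with siCyclin K#2, from 94, 191 and 138 reads. Every group overlapped the others. The log2 change with siCyclin K#1, 0.90, missed the threshold (standard error 0.34, limma adjusted p = 0.0634). It passed without scrambled replicate 2 (1.21), without siCyclin K#1 replicate 3 (1.13) and in a fit on the reads themselves (limma-voom, 1.14). It was lower, and not called, without scrambled replicate 1 (0.67), without siCyclin K#1 replicate 2 (0.73) and with quantile normalization (0.73). The change was 0.23 with siCyclin K#2 (standard error 0.34, limma adjusted p = 0.655), and ran from 0.00475 to 0.547 without 1 library each.

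BCL2L2, the antiapoptotic BCL-W, shares its row with its neighbour PABPN1, a poly(A)-binding protein gene, and with the read-through gene BCL2L2-PABPN1, so that its value is that of all of them together. The row had 14.6, 8.90 and 8.52 FPKM with scrambled siRNA, 10.6, 11.9 and 9.63 for siCyclin K#1, and 8.45, 11.4 and 9.33 for siCyclin K#2. The groups overlapped, and 1 scrambled library was the highest of the 9. The log2 changes, 0.04 and -0.10 (standard error 0.20 for each, limma adjusted p = 0.885 and 0.754), were smaller than their errors.

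Of the pore-forming pair, BAK1 fell with both siRNAs, and further with siCyclin K#1. BAK1 is at chr6:33572547-33580293, on the minus strand. It had 16.8, 17.2 and 16.8 FPKM with scrambled siRNA, 7.74, 8.53 and 8.74 for siCyclin K#1, and 12.3, 11.2 and 11.2 for siCyclin K#2. The 3 groups did not overlap, and siCyclin K#1, the siRNA with the smaller change of MCL1, had the lowest values. The means were 49.2% and 68.3% of the scrambled mean. The log2 change was -1.02 with siCyclin K#1 (standard error 0.06, limma adjusted p = 1.72e-06) and -0.55 with siCyclin K#2 (standard error 0.06, limma adjusted p = 0.000116), and the siRNAs differed by -0.47 (standard error 0.06, limma adjusted p = 0.000423).

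BAX, the other pore former, at chr19:48954815-48961798 on the plus strand, moved little. Its level was 21.4, 21.7 and 20.5 FPKM with scrambled siRNA, 24.1, 23.8 and 23.7 for siCyclin K#1, and 21.3, 20.9 and 21.9 for siCyclin K#2. The siCyclin K#1 libraries lay above the other 6, which overlapped. The rise with siCyclin K#1 was 0.17 on the log2 scale (standard error 0.03, limma adjusted p = 0.00334), beside 0.10 for the median of all genes. Median-ratio rescaling of the libraries, which brings that median to 0.00, left 0.05 for BAX and ended its call. With siCyclin K#2 the change was 0.01 (standard error 0.03, limma adjusted p = 0.84), and -0.0366 after the rescaling. The ratio of BAX to BAK1 was 1.25 ± 0.0251 in the scrambled group, 2.87 ± 0.215 for siCyclin K#1 and 1.85 ± 0.115 for siCyclin K#2 (SD, n = 3 for each), with no overlap between groups.

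Among the BH3-only members BAD, a sensitizer that binds BCL2 and BCL-XL, fell with both siRNAs. BAD is at chr11:64269830-64284704, on the minus strand. It had 21.2, 21.2 and 19.8 FPKM with scrambled siRNA, 13.96, 13.9 and 13.6 for siCyclin K#1, and 18.3, 18.9 and 15.3 for siCyclin K#2. The siCyclin K#1 libraries were the lowest, and the siCyclin K#2 libraries lay between the other groups. On the log2 scale BAD fell by 0.58 with siCyclin K#1 (standard error 0.07, limma adjusted p = 0.000222) and by 0.25 with siCyclin K#2 (standard error 0.07, limma adjusted p = 0.0299). The second call was lost without scrambled replicate 1 (-0.23) or scrambled replicate 2 (-0.23), and in the fit without trend (-0.25, limma adjusted p = 0.0665). Without 1 library each, the change of BAD with siCyclin K#2 ran from -0.307 to -0.157.

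BID, which links death receptors to mitochondria once caspase 8 has cut it, had 6.16, 5.46 and 5.601 FPKM with scrambled siRNA, 4.96, 4.89 and 5.05 for siCyclin K#1, and 5.44, 5.86 and 5.81 for siCyclin K#2. The siCyclin K#1 libraries were the lowest. BID fell by 0.20 on the log2 scale with siCyclin K#1 (standard error 0.06, limma adjusted p = 0.023), a call that 3 of 9 fits without 1 library did not keep: -0.15 without scrambled replicate 1, -0.20 without siCyclin K#1 replicate 1 and -0.19 without siCyclin K#1 replicate 2. Its log2 change with siCyclin K#2 was -0.01 (standard error 0.06, limma adjusted p = 0.946).

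BIK, a BH3-only gene of the endoplasmic reticulum, was among the lowest members and was the one that the siRNAs set furthest apart. It had 0.249, 0.231 and 0.453 FPKM with scrambled siRNA, 0.551, 0.603 and 0.828 for siCyclin K#1, and 0.163, 0.0632 and 0.165 for siCyclin K#2. These values rest on 8, 7 and 14 reads, on 17, 18 and 26 reads, and on 5, 2 and 5 reads. Both reads of a pair are counted here, so that the fragments were fewer still. The 3 groups did not overlap, but counting error is large at such depth. BIK rose by 0.91 on the log2 scale with siCyclin K#1 (standard error 0.29, limma adjusted p = 0.0316), and its change of -0.83 with siCyclin K#2 missed the threshold (standard error 0.29, limma adjusted p = 0.0567). The siRNAs differed by 1.74 (standard error 0.29, limma adjusted p = 0.00212). The rise with siCyclin K#1 lost its call without any 1 of 4 libraries, with values from 0.76 (without siCyclin K#1 replicate 3) and 0.78 (without scrambled replicate 2) to 0.81 (without scrambled replicate 1) and 0.96 (without siCyclin K#1 replicate 2).

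BCL2L11, which encodes BIM, an activator of BAX and BAK1, varied more among libraries of 1 group than between groups. It had 4.34, 2.41 and 2.65 FPKM with scrambled siRNA, 2.68, 1.97 and 9.81 for siCyclin K#1, and 5.12, 2.41 and 0.801 for siCyclin K#2. The highest and the lowest of the 9 values were both in siCyclin K libraries, from 2152 and 170 reads. The SD within groups was 1.04 on the log2 scale, above that of 99.7% of the 11243 genes with a mean of at least 1 FPKM, whose median was 0.103. For MCL1 and BCL2L1 it was 0.0448 and 0.0440. The log2 changes of BCL2L11 were 0.30 and -0.46 (standard error 0.72 for each, limma adjusted p = 0.774 and 0.675), and each changed sign without 1 library: -0.38 without siCyclin K#1 replicate 3 and 0.21 without siCyclin K#2 replicate 3.

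**Figure D3:**
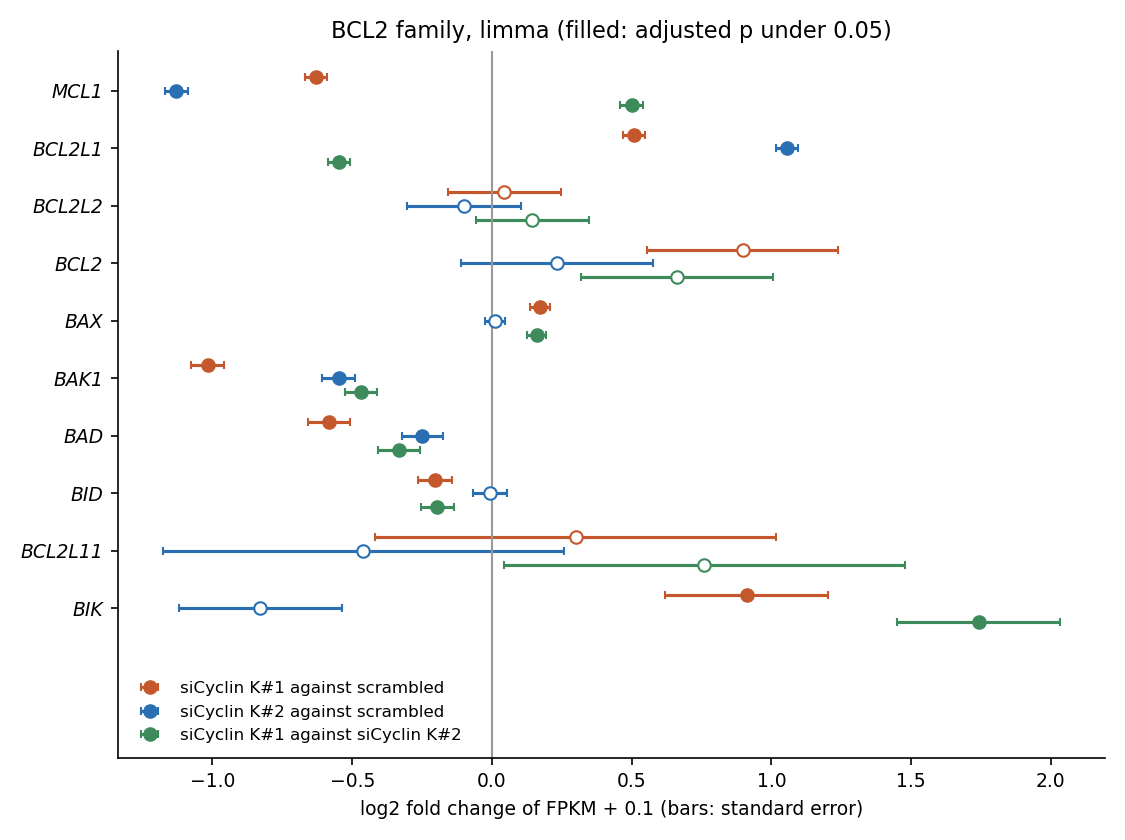
Log2 fold change of FPKM + 0.1 (horizontal axis) of the 10 members, with the standard error of the limma fit as bars, for each siRNA against scrambled and for siCyclin K#1 against siCyclin K#2 (colours). Filled points have an adjusted p under 0.05; MCL1 lies at -0.63 and -1.13 and BCL2L1 at 0.51 and 1.06 against scrambled, while the widest bars, 0.72, belong to BCL2L11.

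Taking the 6 siCyclin K libraries as 1 group, all 6 lay above the 3 scrambled libraries for BCL2L1 and below them for MCL1, BAD and BAK1, 4 of the 10 members, and the other 6 overlapped. Of all genes tested 32.6% stood apart in this way, 18.9% above and 13.7% below. The exact two-sided permutation test of 6 libraries against 3 gave p = 0.0119 for MCL1 and for BAK1, the smallest it allows. For BCL2L1 and for BAD this exact permutation test gave p = 0.0238, unadjusted over the 10 members tested. For BAX, BCL2 and BID the exact permutation test gave p = 0.155, 0.179 and 0.214. For BCL2L11, BCL2L2 and BIK the exact permutation test gave p = 0.881, 0.917 and 0.964. The low values of the 4 members largely restate that their libraries stood apart. Libraries of both siRNAs were also taken as replicates of 1 condition, although the siRNAs differed in all 4. An exact permutation test of 3 libraries against 3 cannot go below p = 0.1.

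The order of the levels changed with the siRNA, on the same per-length scale. With scrambled siRNA it ran from MCL1, BCL2L1, BAX, BAD and BAK1 to BCL2L2, BID, BCL2L11, BIK and BCL2, where the ranges of BAX and BAD overlapped, as did those of BIK and BCL2. With siCyclin K#1 BCL2L1 came first, before MCL1 and BAX, and BAK1 dropped below the row of BCL2L2. BID and BCL2L11 overlapped there, as did BIK and BCL2. With siCyclin K#2 MCL1 was only the fourth, after BCL2L1, BAX and BAD, and its range overlapped that of BAD, as did the ranges of BAK1 and BCL2L2. The mean level of BCL2L1 was 29.6 ± 1.47 FPKM (SD, n = 3), 42.2 ± 0.754 (SD, n = 3) and 61.7 ± 0.451 (SD, n = 3) over the groups in the same order, and that of MCL1 was 38.0 ± 1.56, 24.5 ± 0.274 and 17.3 ± 0.576 FPKM (SD, n = 3 for each).

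Reads of overlapping genes cannot be told apart where the counting of strands is not given in the sources used here. ABALON, a noncoding gene on the strand opposite to BCL2L1 that shares exon sequence with it, has its own row, with 7.18, 6.95 and 6.42 FPKM with scrambled siRNA, 14.1, 4.53 and 15.05 for siCyclin K#1, and 20.8, 2.49 and 14.996 for siCyclin K#2. ABALON was lowest in replicate 2 of both siCyclin K groups, where BCL2L1 was at 42.6 and 62.2 FPKM, level with its other replicates. GPR137, opposite to BAD, had 3.11 to 4.35 FPKM in scrambled libraries, 6.04 to 6.47 FPKM in siCyclin K#1 libraries and 2.94 to 3.66 FPKM with siCyclin K#2. GGNBP1, opposite to BAK1, was at or under 0.181 FPKM. MIR4435-2HG, opposite to BCL2L11, and ADAMTSL4-AS1, which shares exon sequence with MCL1 on the same strand, were not analysed here. The part of these neighbours in the changes of the members was not tested. Other genes named here also share exon sequence with a gene on the opposite strand. Examples are KRT8 with KRT18, CASP6 with MCUB, HTRA2 with AUP1 and LOXL3, TNFRSF10B with RHOBTB2, and BMF with BMF-AS1. The same limit holds for their values, and the part of those neighbours was not tested either.

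Among members of at least 1 FPKM, MCL1 and BCL2L1 had the largest called changes with siCyclin K#2. With siCyclin K#1 that of BAK1 (-1.02) was larger. The genes most like MCL1 and BCL2L1 were found by Euclidean distance of centred log2 values over the 9 libraries among 11243 genes. Nearest to MCL1 were ANKEF1 (distance 0.159), RPL35A (0.182) and ZSWIM8 (0.207), with RPL35A, a ribosomal protein gene, at mean levels of 67.4, 41.9 and 30.8 FPKM over the groups. Nearest to BCL2L1 were SRGAP2B (0.128), OSBP (0.138) and DOT1L (0.175), with OSBP, which encodes a sterol-binding protein, at 9.16, 12.6 and 19.4 FPKM.

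The other genes of the pathway were counted list by list, beside the 44.8% of all genes called with siCyclin K#1 and the 34.9% called with siCyclin K#2. Lists of so few genes with shares near these say nothing particular about the list. Other homologs of BCL2 moved in both directions. Of 7 listed, 4 could be tested, 2 were under the filter on low values and BCL2L10 was not analysed here. With each siRNA 1 of the 4 rose and 2 fell, with a median log2 change of -0.24 and -0.03, beside 0.10 and 0.01 for all genes. BCL2A1, an antiapoptotic target of NF-κB, had 12.2, 9.49 and 11.1 FPKM with scrambled siRNA, 3.69, 3.19 and 4.12 for siCyclin K#1, and 5.94, 8.21 and 6.05 for siCyclin K#2. It fell by 1.55 on the log2 scale with siCyclin K#1 and by 0.70 with siCyclin K#2 (limma adjusted p = 3.94e-05 and 0.00625). BCL2L12 also fell, by 0.76 and 0.29. BCL2L13, a mitochondrial member with a role in mitophagy, had 3.63, 4.07 and 3.67 FPKM with scrambled siRNA and 10.0, 10.0 and 10.1 with siCyclin K#1, a rise of 1.38 on the log2 scale, and of 0.92 with siCyclin K#2.

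Among the 6 other BH3-only and atypical BH3 genes, 2 rose and 2 fell with siCyclin K#1, and 1 rose and 2 fell with siCyclin K#2, beside 44.8% and 34.9% of all genes called. Their median log2 change was 0.44 and 0.12. BBC3, which encodes the p53 target PUMA, had 1.26, 1.67 and 1.21 FPKM with scrambled siRNA, 9.40, 6.37 and 8.08 for siCyclin K#1, and 2.85, 3.06 and 2.84 for siCyclin K#2. BBC3 had the largest log2 rise of the pathway lists with siCyclin K#1, 2.44 (standard error 0.16, limma adjusted p = 3.17e-06), and rose by 1.04 with siCyclin K#2 (standard error 0.16, limma adjusted p = 0.000876). BMF, which is held at the cytoskeleton until stress releases its protein, went in opposite directions, from 8.12, 10.1 and 8.81 FPKM up to 18.6, 19.3 and 18.9 with siCyclin K#1 and down to 6.54, 6.22 and 6.61 with siCyclin K#2. Its log2 changes were 1.07 and -0.47 (limma adjusted p = 4.93e-06 and 0.00117), and the siRNAs differed by 1.54 (standard error 0.07, limma adjusted p = 2.07e-06). PMAIP1, which encodes NOXA, a partner of MCL1, fell by 0.65 and 0.87. The first of these calls was lost without scrambled replicate 2, scrambled replicate 3 or any single siCyclin K#1 library (-0.66 to -0.56). BNIP3, a hypoxia-induced mitophagy receptor, fell by 0.98 with siCyclin K#1, and its change with siCyclin K#2 was 0.00 (limma adjusted p = 0.982).

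The genes that act on MCL1 protein turnover were followed as 4 genes, since the mRNA does not show the protein. FBXW7, a ubiquitin ligase subunit, had 1.18, 1.302 and 1.42 FPKM with scrambled siRNA and 3.80, 3.87 and 3.83 with siCyclin K#1, a rise of 1.49 on the log2 scale (limma adjusted p = 1.75e-06), and of 0.30 with siCyclin K#2 (limma adjusted p = 0.0274). The call of FBXW7 with siCyclin K#2 was lost without replicate 1 or 2 of either group (0.23 to 0.30). USP9X, the deubiquitinase of MCL1, rose by 0.45 and 0.25. BTRC, another ligase subunit, rose by 0.18 with siCyclin K#1, a call lost on rescaling. HUWE1, the ligase MULE, fell by 0.17 with siCyclin K#2. Of the 4 genes 3 were called higher with siCyclin K#1, where 26.8% of all genes were, and with siCyclin K#2 2 were called higher and 1 lower, where 19.8% and 15.2% of all genes were. The median log2 change was 0.31 and 0.12.

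Downstream of the mitochondria, 2 of 9 release and apoptosome genes rose and 3 fell with siCyclin K#1, and 2 rose and 2 fell with siCyclin K#2, beside 44.8% and 34.9% of all genes called. Their median log2 change was -0.21 and -0.06. HTRA2, a mitochondrial protease that is released, fell by 0.72 and 0.71 on the log2 scale, and VDAC1, a channel of the outer membrane, by 0.50 and 0.15. ENDOG, a mitochondrial nuclease, fell by 0.53 with siCyclin K#1, a call lost without any single scrambled library, siCyclin K#1 replicate 2 or 3, or siCyclin K#2 replicate 3 (-0.57 to -0.44). APAF1, the scaffold of the apoptosome, rose by 0.85 with siCyclin K#1. CYCS, cytochrome c, rose by 0.63 with siCyclin K#2, and the siRNAs differed by -0.84 (limma adjusted p = 0.000299). DIABLO could be tested only together with VPS33A and AC048338.1, with which it shares a row.

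Of 8 caspases and substrates followed, 2 rose and 2 fell with siCyclin K#1, and 1 was called with siCyclin K#2, a rise, beside 44.8% and 34.9% of all genes called. Their median log2 change was 0.02 and -0.09. CASP6, an executioner caspase, had 3.92, 3.66 and 3.91 FPKM with scrambled siRNA, 7.86, 7.70 and 7.89 for siCyclin K#1, and 6.46, 6.15 and 6.25 for siCyclin K#2. No groups overlapped, and the log2 rises were 1.01 and 0.70 (limma adjusted p = 6.74e-07 and 1.01e-05). CASP9, the initiator caspase of the apoptosome, rose by 0.39 with siCyclin K#1 (limma adjusted p = 0.0402), a call lost without scrambled replicate 1 or 3, any single siCyclin K#1 library or siCyclin K#2 replicate 1 (0.32 to 0.40). PARP1, a DNA repair enzyme cut by caspases, fell by 0.64 with siCyclin K#1 and had a log2 change of 0.03 with siCyclin K#2 (limma adjusted p = 0.52). CASP2 fell by 0.90 with siCyclin K#1, a call lost without scrambled replicate 2 (-0.82).

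Among the 7 inhibitors of apoptosis, 2 rose and 2 fell with siCyclin K#1, and 1 rose and 2 fell with siCyclin K#2, beside 44.8% and 34.9% of all genes called. Their median log2 change was 0.16 and -0.26. BIRC3, a ubiquitin ligase of the TNF receptor complex, had 21.8, 23.0 and 22.0 FPKM with scrambled siRNA, 9.27, 8.17 and 7.67 for siCyclin K#1, and 11.3, 15.5 and 11.4 for siCyclin K#2, a fall by 1.41 and 0.82 on the log2 scale (limma adjusted p = 1.93e-05 and 0.00083). Its neighbour and close relative BIRC2 fell by 1.36 with siCyclin K#1. BIRC5, survivin, also a mitotic protein, rose by 0.67 and 1.15. BIRC7 rose by 0.84 with siCyclin K#1.

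Of the 10 genes of the death receptor pathway 8 could be tested, since the ligand genes TNFSF10 and FASLG were under the filter. With siCyclin K#1, 3 rose and 4 fell, and with siCyclin K#2, 2 rose and 2 fell, beside 44.8% and 34.9% of all genes called. Their median log2 change was -0.15 and 0.0016. FADD, the adaptor of the receptors, had 22.3, 22.4 and 23.996 FPKM with scrambled siRNA, 10.7, 8.82 and 10.1 for siCyclin K#1, and 16.3, 18.8 and 18.3 for siCyclin K#2, a fall by 1.21 and 0.36 on the log2 scale. TNFRSF10B, a TRAIL receptor, had 39.96, 37.4 and 37.6 FPKM with scrambled siRNA and 19.7, 20.9 and 20.3 with siCyclin K#1, a fall by 0.91 (limma adjusted p = 3.21e-07). Its log2 change with siCyclin K#2 was -0.01 (limma adjusted p = 0.913). The other TRAIL receptor gene TNFRSF10A fell by 0.76 with siCyclin K#1. FAS rose by 0.89 with siCyclin K#1, a call lost without any single scrambled library, without siCyclin K#1 replicate 1 or 2, or without siCyclin K#2 replicate 1 (0.73 to 0.99). RIPK1 fell by 0.33 and 0.50, and TNFRSF1A, the TNF receptor, rose by 0.46 and 0.32. CFLAR, a caspase 8 inhibitor whose row is shared with AC007283.1, rose by 0.39 and 0.26, and the second of these calls was lost without scrambled replicate 2 or 3 or without siCyclin K#2 replicate 3 (0.22 to 0.23).

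**Figure D4:**
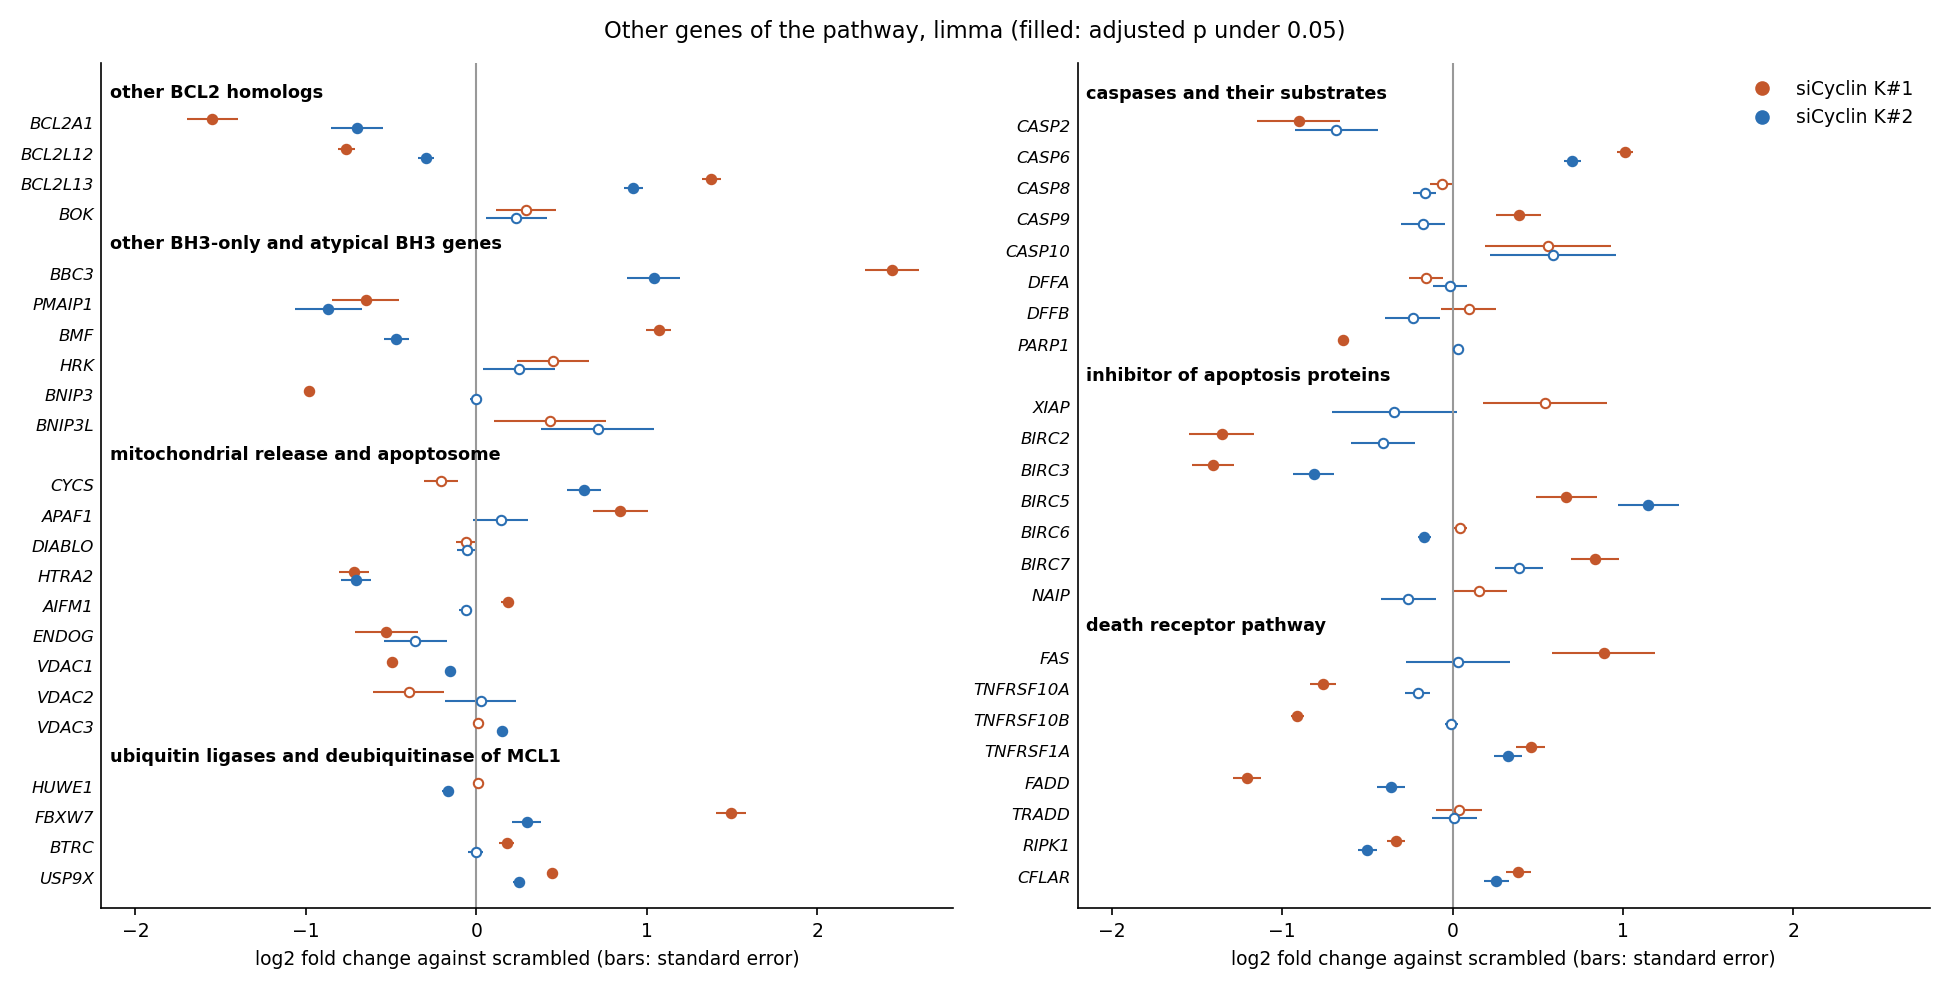
Log2 fold change against scrambled siRNA (horizontal axis) of the other genes of the pathway, grouped by list, with standard errors as bars, for siCyclin K#1 and siCyclin K#2 (colours). Filled points have an adjusted p under 0.05; every list holds points on both sides of 0, from BCL2A1 at -1.55 to BBC3 at 2.44, both with siCyclin K#1.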

How the data were processed

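The authors sequenced total RNA of 9 libraries as paired reads (Illumina HiSeq X) and deposited FPKM per feature, made with StringTie 1.3.3b. The aligner, annotation release and counting of strands are not given in the sources used here. Groups and replicate numbers come from the labels. The members and lists were chosen with earlier results of these data known. Rows of 1 reference gene were summed. The limma package (version 3.58.1, R 4.3.3) was fitted to log2(FPKM + 0.1) of 3 groups, with eBayes and a trend, over 21048 genes with at least 0.1 FPKM in at least 3 libraries, with Benjamini-Hochberg adjustment, so that a fold change understates that of low genes. The called threshold was an adjusted p under 0.05. Beside it stand the thresholds of the methods, a fold change over 3 and p under 0.01. Single members had an exact permutation test (scipy 1.17.1). Depth was estimated with exon lengths of GENCODE 29 (GRCh38): 84.99% of nonzero values of 27835 features were whole reads within 0.05. The fit was run on 1 simulated set of 21048 genes with independent noise and known changes with siCyclin K#1. It recovered 33, 42, 48 and 50 of 50 genes changed 1.5-, 2-, 3- and 4-fold, and called 8 unchanged genes. Far fewer genes were changed there than were called in the data, so the simulation does not give the error rate of these calls. Genes named were all members, and of each list at most 4 called genes by size of change, and for 2 members the 3 nearest genes. Values were also given where a group count needed them. Replicates of a group differed by more than sampling noise. Some genes of the lists are not reported here. Alternatives were pseudocount, filter, scaling, trend, replicate block, row choice, recovered reads, threshold and leaving out each library.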

Additional observations from a re-analysis of the deposited data

Results flagged for a closer look

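The siRNAs were tested against each other directly with limma, and the following named genes differed between them at a Benjamini-Hochberg adjusted p under 0.05 (values are log2 differences, siCyclin K#1 minus siCyclin K#2, with 3 libraries in each group). Among the members these were MCL1 (0.50), BCL2L1 (-0.55), BID (-0.20), BAD (-0.33), BIK (1.74), BAX (0.16) and BAK1 (-0.47). Among their homologs and other BH3 genes they were BCL2A1 (-0.85), BCL2L13 (0.46), BCL2L12 (-0.47), BBC3 (1.40), BMF (1.54) and BNIP3 (-0.98). For release and apoptosome genes the differences were 0.70 for APAF1, -0.34 for VDAC1, -0.84 for CYCS and 0.25 for AIFM1. For caspases and substrates they were -0.67 for PARP1, 0.56 for CASP9 and 0.31 for CASP6. For inhibitors of apoptosis they were -0.59 for BIRC3, -0.95 for BIRC2, 0.45 for BIRC7 and 0.21 for BIRC6. In the death receptor pathway FADD differed by -0.84, TNFRSF10B by -0.90, TNFRSF10A by -0.56 and RIPK1 by 0.17. Among the genes that act on MCL1 protein FBXW7 differed by 1.20, USP9X by 0.20, BTRC by 0.18 and HUWE1 by 0.18. BID lost its call in 6 of the 9 fits without 1 library (-0.21 to -0.18), RIPK1 in 8 (0.13 to 0.19), BIRC7 in 6 (0.37 to 0.45), and BTRC without siCyclin K#2 replicate 3 (0.16). Of the cell type markers COL1A1 differed by 2.10, CDH1 by 1.15, KRT18 by -0.29, ALDH1A1 by -0.15, AKR1B10 by -0.40, AKR1C1 by -0.49 and NQO1 by 0.19. ALDH1A1 lost this call in 6 of the 9 fits without 1 library (-0.17 to -0.11), with the replicate block, with no filter and without trend, and with quantile normalization no difference was left (0.00, limma adjusted p = 1). Groups of 3 libraries were not searched for outlying samples.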

How the results depend on the processing

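MCL1, BCL2L1 and BAK1 kept their direction and their calls in each of the 3 comparisons under every alternative that kept the adjusted threshold and could give them a value. The counts of members called, 7, 4 and 7 for siCyclin K#1 against scrambled, siCyclin K#2 against scrambled and siCyclin K#1 against siCyclin K#2, became 4, 1 and 3 with limma-voom on recovered reads, where only 5 members (BCL2, BCL2L11, BIK, BAX and BAK1) have reads, and 0, 0 and 1 with a change of more than 3-fold at an unadjusted p under 0.01. Leaving out each library moved them to 5 to 7, 3 to 4 and 6 to 7. Deviations of libraries with the same number were hardly correlated (mean r across genes -0.0058, from -0.071 to 0.038 over 9 pairs and 11243 genes). No strong effect shared by libraries of the same number was thus seen. Whether such libraries were made together is not given by the labels, and these correlations cannot decide it. With the replicate block the counts were 7, 5 and 6: BCL2 with siCyclin K#1 and BIK with siCyclin K#2 gained a call, and BID lost both of its calls. Of all genes, 4.67%, 1.94% and 1.53% passed the rule of more than 3-fold. The shares of all genes called in the voom, leave-one-out and replicate block fits are not given here. The counts of members in those fits therefore cannot be set against all genes. Reversed values all belong to changes that did not pass the test. For BCL2L2 with siCyclin K#1 the change was -0.0737 with median-ratio rescaling and -0.0101 with quantile normalization. Without 1 library each (lowest to highest), BCL2L2 ran from -0.0940 to 0.291 with siCyclin K#1 and from -0.239 to 0.146 with siCyclin K#2, and BCL2L11 from -0.382 to 0.746 and from -1.06 to 0.208. With siCyclin K#2, BID ran from -0.0416 to 0.0429 and BAX from -0.0112 to 0.0277, and BAX was at -0.0366 with median-ratio rescaling and -0.0348 with quantile normalization. The cause of these reversals was not tested. Median-ratio rescaling moved the median change of all genes with siCyclin K#1 from 0.10 to 0.00, and the share of calls that were higher from 59.7% to 50.02% with siCyclin K#1, from 56.6% to 50.8% with siCyclin K#2 and from 58.1% to 47.1% between the siRNAs. It ended the calls of BAX and BIK with siCyclin K#1 (that of BIK also with quantile normalization and with no filter) and added that of BIK with siCyclin K#2 (-0.863). Between the siRNAs BAX lost its call with that rescaling (0.09) and without trend, and BID under 8 alternatives, 6 of them fits without 1 library. BIK rests on at most 26 reads a library.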

Other observations

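In some genes of the pathway 1 library stood away from the other 2 of its group, as in BCL2L11. XIAP, which encodes an inhibitor of caspases, had 2.06, 1.66 and 1.99 FPKM in scrambled libraries and 1.40, 1.39 and 1.65 FPKM in siCyclin K#2 libraries. In siCyclin K#1 libraries it had 1.82, 2.09 and 5.78 FPKM, and the high value was in the library that also had the highest BCL2L11. BNIP3L, a mitophagy receptor, had 35.9, 13.8 and 38.5 FPKM with scrambled siRNA and between 34.8 and 45.9 FPKM in the 6 siCyclin K libraries. The log2 changes of XIAP were 0.54 and -0.34 and those of BNIP3L 0.43 and 0.71, and none passed the limma test. These genes were chosen after their values were seen.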
